A study of Mus musculus with 12 samples.

Results

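The small leucine-rich proteoglycans are 9 secreted matrix genes measured here: Dcn, Bgn, Aspn, Lum, Fmod, Prelp, Kera, Omd and Ogn. They were taken by symbol, through every probe set that the platform tables pair with 1 of these genes alone. This gave 20 probe sets out of 45265, of which 19 are on the Affymetrix chip MOE430A and 1, for Dcn, is on MOE430B. RNA came from mouse mammospheres, floating clusters of cultured mammary gland cells, in 2 states with 3 RNA samples each, numbered 1, 2 and 4. The undifferentiated spheres were at passage 3 in 3:1 DMEM and F12 with B-27, basic fibroblast growth factor, epidermal growth factor and heparin, and were rated 90% pure with 10% myoepithelial cells. The differentiated cells came from spheres kept for 6 days under differentiating conditions, on dishes coated with collagen in DMEM rich in glucose, with fetal bovine serum at 5%, and were rated as 50% myoepithelial and 50% luminal. Both were kept at 37 C in 5% CO2. The labels name no strain or age, nor whether the 3 RNA samples stand for different cultures or animals, and p-values therefore measure a spread between RNA samples that may be technical. Medium, growth factors, serum, collagen coating and fluidics station changed together with the state and cannot be told apart from it. In these bulk samples fewer cells of a type and less RNA per cell cannot be told apart either.

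Proteins of this family carry a core of leucine-rich repeats that binds collagen fibrils and sets their width and spacing. Dcn, Bgn and Aspn form class I, Lum, Fmod, Prelp, Kera and Omd class II, and Ogn belongs to class III. Decorin and biglycan bear chondroitin or dermatan sulfate chains, and most class II proteins can bear keratan sulfate. In the mammary gland the family is mostly a product of stromal fibroblasts, and decorin and biglycan also bind growth factors and receptors.

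The 9 genes did not move as a block. The genes Bgn, Aspn, Fmod, Prelp and Ogn, rose in the differentiated samples on every one of their tested probe sets. Lum and Kera fell. Dcn did not pass on either of its probe sets, and Omd was too dim to be tested. In probe sets, 15 of the 18 tested on MOE430A rose and 2 fell, while 14.1% of all tested probe sets of that chip rose and 14.4% fell (limma, Benjamini-Hochberg adjusted p under 0.05). The values of the states did not overlap in 16 family probe sets that read higher, Omd included, and in 2 that read lower, beside 24.1% and 23.5% of all tested probe sets of the chip. For 11 of the 15 that rose, all undifferentiated values lay below the background. Such probe sets enter the test only through the differentiated arrays, so the count describes the family and is not a measure of how unusual it is. The background is the highest signal of the trpn controls, which match no mouse gene, and it ran from 516 to 830 over the MOE430A arrays.

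**Figure D1:**
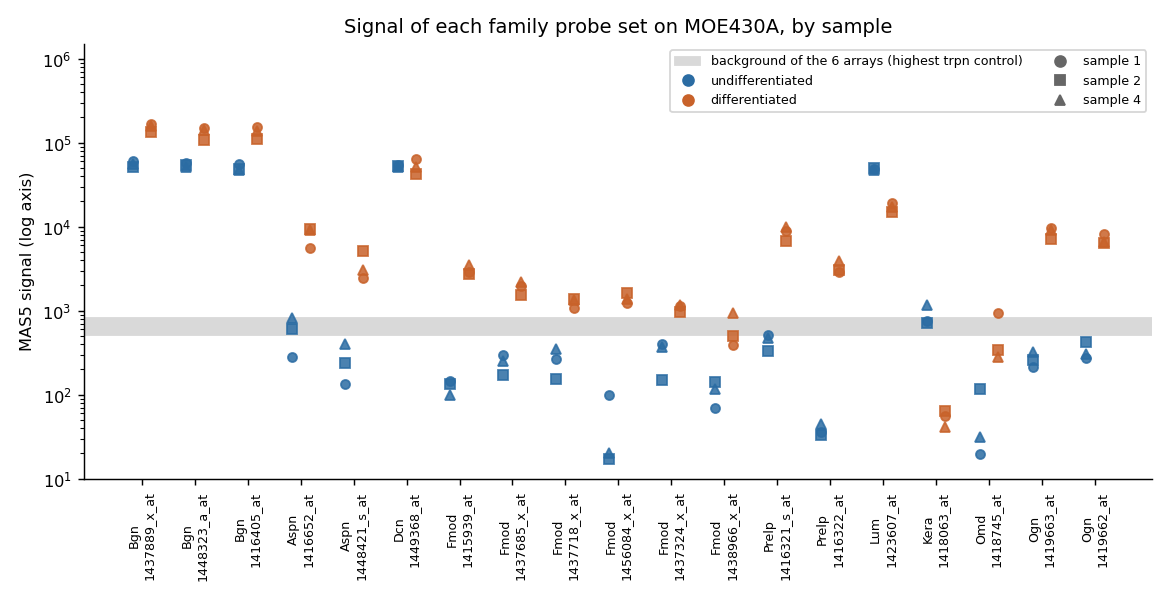
MAS5 signal (log axis) of the 19 family probe sets on MOE430A, grouped by gene, for each undifferentiated (blue) and differentiated (orange) sample. The grey band spans the background of the 6 arrays, from 516 to 830. Bgn, Dcn and Lum read far above it in both states, whereas Fmod, Prelp and Ogn cross it between the states and Kera crosses it the other way.

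Depth has no count on an array, and 3 arrays a state limit the precision. The arrays of a chip had a common trimmed mean, 1500.5 on MOE430A and 1500.2 on MOE430B. Control transcripts added at hybridisation read 2.88-fold, 1.44-fold and 2.85-fold above the undifferentiated mean on the MOE430A arrays of differentiated samples 1, 2 and 4. The 18S ribosomal RNA control also stood apart in differentiated samples 1 and 4, at 25336 and 17929 against 2089 in differentiated sample 2 and at most 2456 in the undifferentiated ones. Without differentiated samples 1 and 4, 14 family probe sets rose and 2 fell. Scaling every array on these hybridisation controls, called the added controls below, shifted the median change over tested MOE430A probe sets from 0.03 to -1.06 (log2). Under it 247 of these 15939 probe sets rose and 10649 fell, so counts on the added controls include that shift. The same SE, 0.39, was then fitted for every MOE430A probe set. Those p-values therefore do not measure a gene's own spread. A second set, the poly-A controls, read 1.03-fold, 0.81-fold and 1.12-fold of the undifferentiated mean on the same differentiated arrays. Scaling on the poly-A controls gave a median change of 0.06 (log2), with 15 family probe sets higher and 2 lower. Changes of the family's genes under scaling on the added controls are given below where they alter a call.

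Biglycan and decorin, the closest relatives in class I, behaved differently. Bgn, whose protein organises collagen fibrils and can signal through Toll-like receptors, read on probe set 1437889_x_at 61402, 51778 and 56298 in undifferentiated samples 1, 2 and 4 and 168254, 134210 and 160369 in differentiated samples 1, 2 and 4. Every differentiated value was above every undifferentiated one. The mean went from 56493 ± 4815 (SD, n = 3) to 154278 ± 17820 (SD, n = 3), a log2 fold change of 1.44 ± 0.14 (SE, limma adjusted p = 0.000572). The other Bgn probe sets gave 1.39 ± 0.16 (1416405_at, limma adjusted p = 0.0011) and 1.29 ± 0.16 (1448323_a_at, limma adjusted p = 0.00157). Under the scaling on added controls, which moved the median of all probe sets by more than 1 log2 unit, the 3 Bgn values were 0.26, 0.21 and 0.11. None of them passed (limma adjusted p 0.54, 0.624 and 0.801, from a spread common to all probe sets of the chip). After quantile normalization they were 0.64, 0.65 and 0.53 and all passed. Scaled on the poly-A controls they were 1.48, 1.43 and 1.33 and all passed.

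Dcn, whose protein binds collagen, transforming growth factor beta and the epidermal growth factor receptor, read 54686, 52747 and 50918 in the undifferentiated and 64814, 41927 and 50771 in the differentiated samples 1, 2 and 4 on 1449368_at. The differentiated values spanned the undifferentiated ones, with sample 1 above and samples 2 and 4 below all of them. The means were 52783 ± 1884 and 52504 ± 11542 (SD, n = 3 each), and the change of -0.03 ± 0.18 (log2, SE) did not pass (limma adjusted p = 0.912). It passed as lower after quantile normalization, at -0.60 (limma adjusted p = 0.0271), and under scaling on the added controls, at -1.22 (limma adjusted p = 0.0051). The MOE430B probe set of Dcn, 1441506_at, read 1473, 1633 and 825 against 252, 252 and 1135, with every value below the background of its array. Its change of -1.40 ± 0.57 (log2, SE) did not pass (limma adjusted p = 0.321), on a chip where 1.83% of tested probe sets did (0.714% higher and 1.12% lower). On the added controls it passed as lower, at -2.31 (limma adjusted p = 0.015).

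Asporin, the class I member with a run of aspartate residues and no typical attachment site for a sugar chain, rose strongly. On 1416652_at Aspn read 279, 604 and 812 in undifferentiated samples 1, 2 and 4 and 5594, 9404 and 9127 in the differentiated ones. Sample 1 was the lowest of both states, and only 1 of the 3 undifferentiated values lay above the background. The rise was 3.73 ± 0.36 (log2, SE, limma adjusted p = 0.000551). The second probe set, 1448421_s_at, went from 258 ± 135 to 3552 ± 1428 (SD, n = 3 each) and was at least 5.85-fold higher, with its undifferentiated values set to the background (limma adjusted p = 0.000803).

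Lumican, the class II member that is abundant in cornea and skin and regulates fibril assembly, fell. Lum read 48234, 50509 and 47600 in the undifferentiated and 19183, 14843 and 17262 in the differentiated samples 1, 2 and 4. All 6 values were far above the background and the states did not overlap. The means were 48781 ± 1530 and 17096 ± 2174 (SD, n = 3 each), a log2 fold change of -1.52 ± 0.14 (SE, limma adjusted p = 0.00039). Every alternative left Lum lower and past the threshold, with values from -2.70 to -1.42.

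Because an array-wide scaling factor cancels in a ratio of signals on 1 array, Bgn, Dcn and Lum were also compared with each other in that way. The level of such a ratio has no meaning between unlike probe sets, but its change between states has. The log2 ratio of Bgn over Lum was 0.35, 0.036 and 0.24 in undifferentiated samples 1, 2 and 4 and 3.13, 3.18 and 3.22 in the differentiated ones. It thus rose by 2.97. The ratio of Bgn over Dcn rose by 1.48 and that of Dcn over Lum by 1.49. In all 3 ratios the states did not overlap, and the two-sided exact permutation test gave p = 0.1 for each (0.1 after Benjamini-Hochberg adjustment over 3 ratios), the smallest p that 3 against 3 samples can give. The 3 genes were chosen with their changes known, so the ratios describe the same values without the scaling and do not tell which gene stayed level. On every array at most 0.688% of the probe sets read brighter than Dcn and at most 0.264% brighter than any Bgn probe set, and whether scanner saturation limited these values was not tested.

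**Figure D2:**
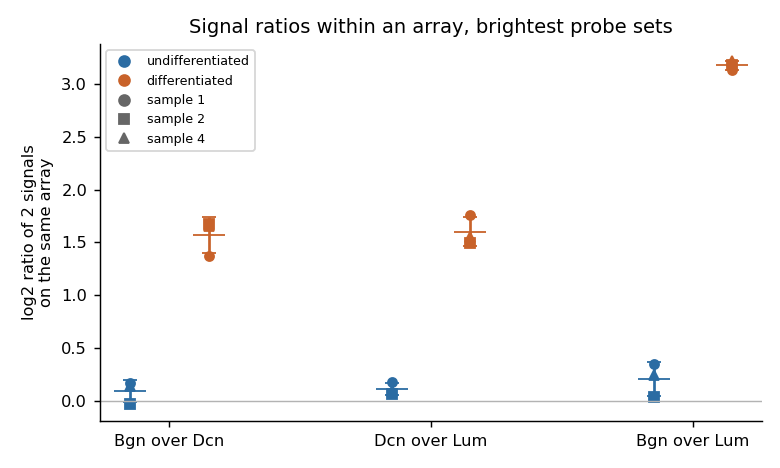
Log2 ratio of the signals of 2 genes on the same MOE430A array, brightest tested probe set of each, with a point per sample and the mean ± SD (n = 3). The undifferentiated ratios lie between -0.027 and 0.35, and the differentiated ones between 1.38 and 3.22.

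Fibromodulin and PRELP, class II neighbours in the genome, went from below to above the background. Fmod, whose protein modulates collagen cross-linking and fibril maturation, read 146, 134 and 99.9 in the undifferentiated and 2880, 2763 and 3471 in the differentiated samples 1, 2 and 4 on 1415939_at. That probe set was at least 5.24-fold higher (log2 fold change 3.95 ± 0.15, SE, limma adjusted p = 2.15e-05). The other 5 Fmod probe sets rose too, by fitted values from 1.69 to 3.68. Of these, 1438966_x_at read above the background in 1 differentiated sample only, so no fold is given for it. Another, 1437324_x_at, no longer passed under scaling on added controls (0.66, limma adjusted p = 0.12) or without differentiated samples 1 and 4 (1.51, limma adjusted p = 0.0826).

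Prelp, whose arginine- and proline-rich end binds heparin and basement membrane, read on 1416321_s_at 519, 335 and 470 in the undifferentiated and 8994, 6692 and 10012 in the differentiated samples 1, 2 and 4. It was at least 14.6-fold higher (log2 fold change 4.06 ± 0.21, SE, limma adjusted p = 4.56e-05). The second Prelp probe set, 1416322_at, went from 38.0 ± 6.25 to 3306 ± 552 (SD, n = 3 each). Its fitted change was the largest of the family, 4.89 ± 0.15 (log2, SE, limma adjusted p = 1.57e-05), but the background bounds it at no more than at least 5.68-fold.

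Osteoglycin, the class III member also called mimecan, rose as well. On 1419663_at Ogn read 214, 256 and 320 in undifferentiated samples 1, 2 and 4 and 9789, 7157 and 9113 in the differentiated ones, at least 14.9-fold higher (log2 fold change 4.69 ± 0.18, SE, limma adjusted p = 2.1e-05). On 1419662_at it read 272, 421 and 303 against 8167, 6326 and 6561, at least 12.1-fold higher (log2 fold change 4.13 ± 0.18, SE, limma adjusted p = 3.26e-05). Both probe sets put sample 1 highest among the differentiated samples. Over all alternatives the rises of Prelp and Ogn passed on each of their probe sets.

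Keratocan and osteomodulin are the members with the narrowest known expression, in cornea and in bone and tooth. Kera read 750, 715 and 1173 in the undifferentiated samples 1, 2 and 4, above the background of each array, and 56.4, 63.9 and 41.6 in the differentiated ones, all below it. It fell at least 1.18-fold, and the fitted change was -2.86 ± 0.20 (log2, SE, limma adjusted p = 0.000133). Omd read 19.5, 117 and 31.5 against 952, 341 and 281, and only differentiated sample 1 lay above the background. The states did not overlap, but the mean of Omd was under the filter of 300 signal units. Without that filter its change was 2.10 ± 0.46 (log2, SE, limma adjusted p = 0.028).

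**Figure D3:**
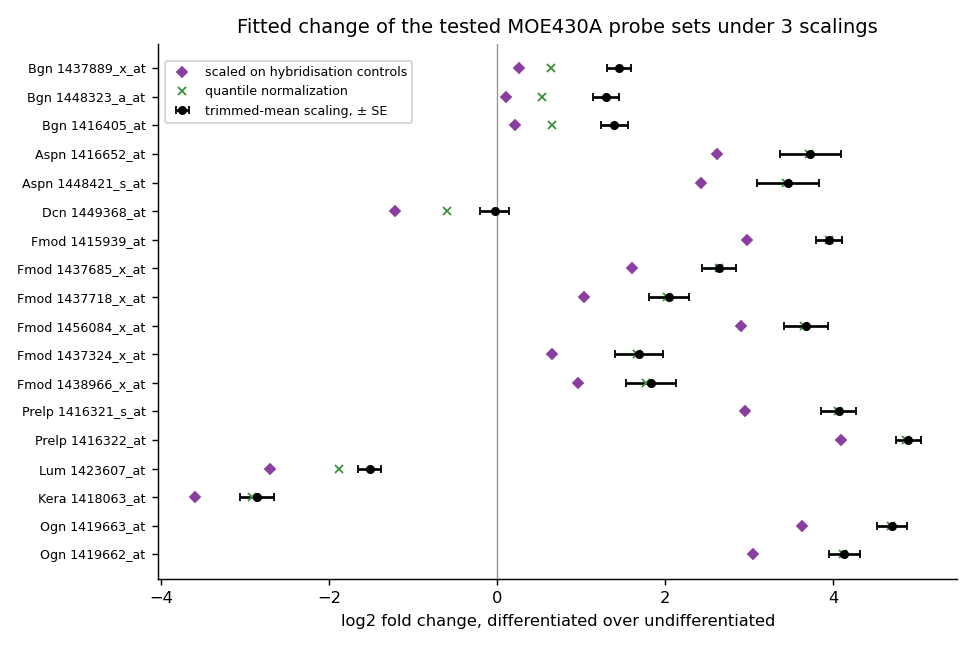
Fitted log2 fold change, differentiated over undifferentiated, of the 18 tested MOE430A probe sets under trimmed-mean scaling (black, ± SE), quantile normalization (green) and scaling on the added hybridisation controls (purple). Aspn, Fmod, Prelp and Ogn stay right of 0 and Lum and Kera left of it under all 3, while Bgn moves close to 0 and Dcn moves below it on the added controls.

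Among the differentiated samples, sample 2 was the lowest for 11 of the 20 probe sets, among them all 3 of Bgn, both of Ogn and those of Dcn and Lum on MOE430A. Sample 1 was the lowest for 7 and sample 4 for 2. Sample 2 was also the one with the lowest reading of the added controls. Without it 15 family probe sets rose and 2 fell on MOE430A.

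Most of the family sits in 3 gene clusters (order from the RefSeq gene table, assembly GRCm38.p6). On chromosome 10 the order is Dcn, Lum, Kera and then Epyc, on chromosome 13 Ecm2, Aspn, Omd and Ogn, and on chromosome 1 Optc, Prelp and Fmod. Bgn lies alone on chromosome X. The chromosome 10 neighbours held both falls and the gene that did not pass, and Epyc, which encodes epiphycan of cartilage, read below the background on all arrays. On chromosome 13 Aspn and Ogn rose and Omd read higher without being tested, while Ecm2 at the edge read 1112 ± 204 and 1109 ± 303 (SD, n = 3 each) on MOE430B, below the background. On chromosome 1 Prelp and Fmod rose, and Optc, an eye protein, lay below the background on all arrays.

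Promoters were at hand for 7 of the 9 genes, Bgn, Fmod, Ogn, Prelp, Aspn, Omd and Kera, as 250 bases before and 50 after the start (RefSeq, GRCm38.p6). Shown are those of the 2 genes with the largest bounded rises, Prelp and Ogn, of Bgn, which rose from a high level, and of Kera, which fell. They run 5′ to 3′ on the gene's strand, and capitals mark matches on either strand to the motifs searched, which were the TATA box (TATAAA), the NF-Y box (CCAAT), the GC box (GGGCGG), the AP-1 element (TGANTCA), a pair of E-boxes (CACGTG and the form CAGCTG), the TEAD element (GGAATG), the RUNX element (TGTGGT), the TCF element (CTTTGA) and the CArG box by name.
Prelp, chr1:133921352-133921651, minus strand: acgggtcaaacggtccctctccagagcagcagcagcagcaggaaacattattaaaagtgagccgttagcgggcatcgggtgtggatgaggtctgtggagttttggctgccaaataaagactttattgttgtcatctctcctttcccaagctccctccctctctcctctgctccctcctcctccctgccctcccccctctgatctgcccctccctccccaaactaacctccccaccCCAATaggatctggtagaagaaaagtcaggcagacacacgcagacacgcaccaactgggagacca
Ogn, chr13:49607765-49608064, plus strand: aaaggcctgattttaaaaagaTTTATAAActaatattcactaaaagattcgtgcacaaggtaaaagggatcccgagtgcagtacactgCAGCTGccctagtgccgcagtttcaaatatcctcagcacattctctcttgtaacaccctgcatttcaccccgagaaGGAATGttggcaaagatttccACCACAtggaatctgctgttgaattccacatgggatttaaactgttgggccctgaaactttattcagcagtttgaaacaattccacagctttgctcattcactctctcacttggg
Bgn, chrX:73483351-73483650, plus strand: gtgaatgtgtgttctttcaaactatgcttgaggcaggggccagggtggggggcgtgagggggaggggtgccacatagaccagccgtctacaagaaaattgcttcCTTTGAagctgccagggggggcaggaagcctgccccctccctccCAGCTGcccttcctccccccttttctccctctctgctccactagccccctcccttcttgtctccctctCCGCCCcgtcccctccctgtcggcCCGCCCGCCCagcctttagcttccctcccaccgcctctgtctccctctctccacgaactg
Kera, chr10:97606955-97607254, plus strand: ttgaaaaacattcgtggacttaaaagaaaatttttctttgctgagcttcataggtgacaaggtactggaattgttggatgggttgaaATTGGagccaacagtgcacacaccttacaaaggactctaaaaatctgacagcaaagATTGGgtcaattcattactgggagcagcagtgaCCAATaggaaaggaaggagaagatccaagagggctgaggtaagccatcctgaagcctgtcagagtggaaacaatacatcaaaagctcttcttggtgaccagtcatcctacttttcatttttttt

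The 4 promoters had few matches in common. Prelp held CCAAT, the box read by the factor NF-Y, 15 bases before the start, and Kera held it 3 times, at 163, 107 and 74 bases before the start. CCAAT occurs in 37.4% of the 32851 promoters of the table. Bgn held GGGCGG, the GC box of Sp factors, at 34, 10 and 6 bases before the start, the last 2 overlapping; 35.7% of promoters hold it. Bgn also held the E-box CAGCTG (in 16.3% of promoters) and a TCF element (16%). Ogn held CAGCTG, a TEAD element (14.7%), a RUNX element (16.8%) and a pair of overlapping TATA matches (13.6%), at 229 and 227 bases before its start. None of the 7 promoters held an AP-1 element (7.81%), the E-box CACGTG (7.15%) or a CArG box (1.63%). A match is a description of letters in this window and shows no binding.

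Genes that work with the family were counted from 6 lists, by the brightest tested probe set of each gene. Over all tested probe sets 28.5% were called on MOE430A and 1.83% on MOE430B. These shares take every tested probe set of a gene, whereas the lists take only the brightest. With the filter at 50% of the trimmed mean, 2170 of 10919 on MOE430A rose and 2276 fell. On the added controls 247 of the 15939 tested on MOE430A rose and 10649 fell. On the poly-A controls 1285 rose and 1274 fell, and 31 genes of the 6 lists passed, beside 35 in the main fit. Of 14 tested genes for fibrillar collagens and their surface partners 11 rose, 1 fell and 2 did not pass. Their median change was 1.34 (log2) beside 0.03 over all probe sets. But on the added controls 1 rose and 3 fell with a median of 0.15. On the poly-A controls 10 rose and 1 fell with a median of 1.37. Col1a1 and Col1a2, the chains of type I collagen, read 56410 ± 1517 and 80521 ± 3350 in the undifferentiated and 165550 ± 26308 and 210066 ± 39366 in the differentiated samples (SD, n = 3 each). Their log2 fold changes were 1.54 ± 0.15 and 1.36 ± 0.17 (SE, limma adjusted p = 0.000581 and 0.00155), and that of Col3a1 was 1.32 ± 0.18 (limma adjusted p = 0.00257). On the added controls these were 0.35, 0.18 and 0.13, and none of the 3 passed (limma adjusted p = 0.402, 0.674 and 0.758). Col12a1, a fibril-associated collagen, had the largest rise, 4.64 ± 0.20, and Col5a3, a chain of type V collagen, the only fall, -2.74 ± 0.13 (limma adjusted p = 3.26e-05 and 3.93e-05). Dpt, which encodes dermatopontin, a decorin partner, did not pass.

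Of 4 tested relatives outside the 9 genes, all on MOE430B, where 0.714% of tested probe sets were higher, Podn, which encodes podocan, rose. It went from 8852 ± 2050 to 74766 ± 8655 (SD, n = 3 each) on MOE430B, by 3.09 ± 0.28 (log2, SE, limma adjusted p = 0.00628). Without differentiated samples 1 and 4 the change was 2.91 ± 0.42 and did not pass (limma adjusted p = 0.122), in a fit that called 0 probe sets on this chip (2204 at an unadjusted p under 0.05). Chadl, Ecm2 and Nyx were tested and did not pass.

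**Figure D4:**
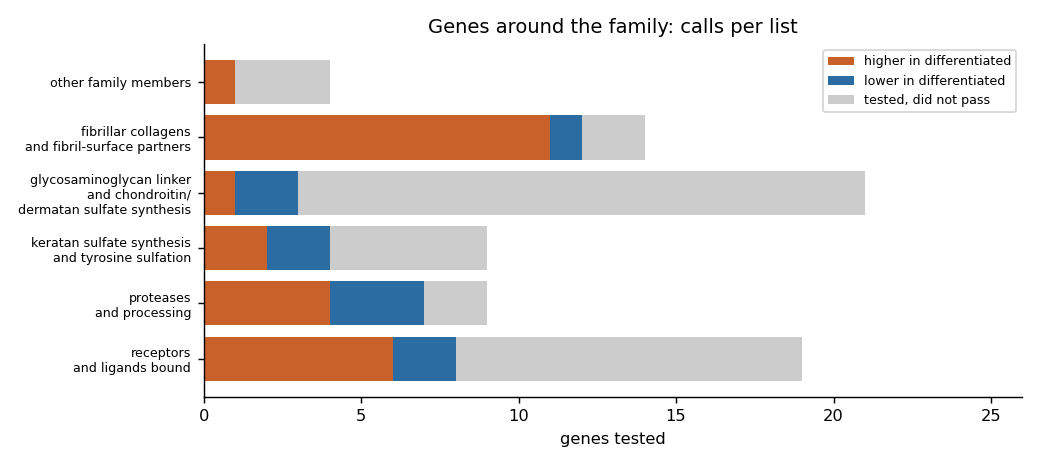
Number of tested genes per list that were higher (orange), lower (blue) or did not pass (grey) in the differentiated samples. The collagen list has 11 higher of 14, and the chondroitin and dermatan sulfate list has 18 of 21 that did not pass. Over all tested probe sets 28.5% passed on MOE430A and 1.83% on MOE430B.

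Most enzymes of the sugar chains did not pass, which was also true of all tested probe sets on both chips. Chsy1, Chsy3, Dse, Dsel, Chst13 and Ust were read on MOE430B, where 1.83% of tested probe sets passed. Of 21 tested genes for the linker and for chondroitin and dermatan sulfate, 1 rose, 2 fell and 18 did not pass (median -0.01), and on the added controls 0 rose and 14 fell. Csgalnact1, which starts chondroitin chains, rose from 3552 ± 666 to 9685 ± 1036 (SD, n = 3 each). Papss2, which makes the sulfate donor, fell from 2648 ± 98.8 to 796 ± 44.0 (SD, n = 3 each), though 1 of its 2 other probe sets tested did not pass. Of 9 genes for keratan sulfate and tyrosine sulfation 2 rose and 2 fell (0 and 6 on the added controls). Chst1, a keratan sulfate sulfotransferase, fell at least 1.14-fold (limma adjusted p = 0.0289). B4galt4, a galactosyltransferase, rose with a fitted change of 1.68 ± 0.33 (log2, SE, limma adjusted p = 0.0103), but only 1 differentiated value lay above the background.

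Among 9 tested proteases and processing factors 4 rose and 3 fell (1 and 5 on the added controls). Adamts5, an aggrecanase, rose by 3.39 ± 0.19 and Mmp9, a gelatinase, changed by -2.00 ± 0.19 (log2, SE, limma adjusted p = 5.58e-05 and 0.000501). Bmp1, the protease that removes the propeptides of biglycan and decorin, read 5044 ± 399 and 4943 ± 453 (SD, n = 3 each), and its change of -0.03 ± 0.13 (log2, SE) did not pass (limma adjusted p = 0.883). Of 19 tested receptors and ligands 6 rose and 2 fell (0 and 11 on the added controls). C1qc, a complement chain bound by several members of the family, had the largest fitted rise, 1.32 ± 0.24 (log2, SE), with 1 differentiated value above the background, and Bmp2, a bone morphogenetic protein, the largest fall, at least 1.28-fold. The transforming growth factor genes split: Tgfb1 fell from 6544 ± 1138 to 1941 ± 217 and Tgfb3 rose from 2168 ± 286 to 4887 ± 711 (SD, n = 3 each, limma adjusted p = 0.000612 and 0.00296). The other Tgfb1 probe set tested did not pass. Tgfb2 did not pass on its brightest probe set (-0.69 ± 0.26, log2, SE) and fell on 2 others. The receptor genes Tlr2, Tlr4 and Egfr did not pass on their brightest probe sets (limma adjusted p = 0.66, 0.415 and 0.196), and 2 of 6 other Egfr probe sets were higher. Met lay below the background on all arrays, as did C1qb, which is counted among the 6 that rose.

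Since fibroblasts are the usual source of the family, marker lists were read beside it. Of all tested probe sets on MOE430A 14.1% rose and 14.4% fell. Of 9 tested fibroblast markers 3 rose, namely Pdgfra, Thy1 and Lox, and 3 fell, namely Col6a3, Fap and Col15a1 (1 and 6 on the added controls). Pdgfra, a receptor of fibroblasts, went from 6344 ± 452 to 16311 ± 1379, and Vim, the mesenchymal filament gene, read 77202 ± 5678 and 80292 ± 2146 (SD, n = 3 each). Of the 2 other Vim probe sets tested 1 was lower in the differentiated samples. The summed signal of the list ran from 185743 to 194356 in the undifferentiated and from 248373 to 267958 in the differentiated samples. Lox, which encodes the collagen cross-linking enzyme lysyl oxidase, alone went from 2556 ± 284 to 81935 ± 6822 (SD, n = 3 each), and without it the sum was 182869 to 191888 and 174201 to 182796. Sums are over the markers on MOE430A. Of 8 luminal markers on the chips 5, namely Krt19, Cdh1, Elf5, Gata3 and Esr1, lay below the background on all arrays. Krt8, of the same list, lay above it in all samples, at 1091 ± 145 and 1229 ± 228 (SD, n = 3 each). Krt18 lay above it in 2 undifferentiated samples and no differentiated one. Neither Krt8 nor Krt18 passed. Of 8 myoepithelial markers 6, namely Krt5, Krt14, Krt17, Trp63, Myh11 and Oxtr, lay below the background on all arrays, in differentiated cells rated 50% of each kind. The other 2, the smooth muscle genes Acta2 and Cnn1, rose by 3.14 ± 0.13 and 1.98 ± 0.44 (log2, SE, limma adjusted p = 2.9e-05 and 0.0171). The other Acta2 probe set tested did not pass. Cnn1 rose from below the background, with only 2 differentiated values above it. On the added controls 2 of the list were higher and 2 lower. Epcam, a luminal marker, read 6051 ± 3614 and 7270.5 ± 3104 (SD, n = 3 each) on MOE430B and did not pass (limma adjusted p = 0.808). The summed signal of the luminal list, without Epcam and Esr1 on MOE430B, was 1960 to 2831 in the undifferentiated and 1733 to 2180 in the differentiated samples, and that of the myoepithelial list, without Trp63 on MOE430B, 6769 to 7103 and 45385 to 56589, most of the latter from Acta2. The part of the mix of cells in the family's changes was not tested.

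The genes with the pattern most like each member were found by Pearson's r over the 6 arrays, among 14638 single-gene probe sets tested on MOE430A. All 6 arrays fall into 2 states, so a high r describes mostly the step between them. Nearest to Bgn were Ghr, Fgl2 and Sparc (r = 0.999, 0.998 and 0.998), the last of them a collagen-binding matrix protein. Nearest to Prelp were Emb, Fbln5 and, as the only member in these rankings, Fmod on 1437685_x_at (r = 0.998). Mfap5, Lrpap1 and Scn7a were nearest to Fmod, Lpl, Cnn2 and Lbp to Ogn, and Nox4, Ndrg1 and Ccn4 to Aspn (r of 0.998 or more after rounding). Lum was nearest to Prkcb, Gch1 and Bzw1 and Kera to Mtap, Uqcrb and Sin3b (r of at least 0.998). Dcn, whose change did not pass under trimmed-mean scaling, was nearest to Tfip11, Mfsd8 and Adamts8 (r = 0.989, 0.984 and 0.977).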

How the data were processed

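Total RNA was prepared with TRIzol and labelled with biotin, per the labels. The tables that the authors deposited hold signal intensities on a linear scale, 1 for each probe set and array. The submitters' processing notes name MAS5 without a version. In these tables the trimmed mean (2% off each end) is alike for all arrays of a chip, and arrays were set to it exactly. Station and scan session, per the file headers of the instrument records, were station 2 for all undifferentiated and 1 for all differentiated arrays, and session 2 for undifferentiated sample 1 and 1 for the rest.

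Probe sets were named through the platform tables, with symbols updated from RefSeq. Of 22690 on MOE430A 20393 have 1 gene, 691 several and 1606 none, and of 22575 on MOE430B 14674, 245 and 7656. The 64 controls of each chip were not tested. An offset of 5% of the trimmed mean (75) was added before log2, so folds of dim probe sets are understated. Probe sets with a mean of at least 20% of it (300) were tested, 15939 on MOE430A and 17915 on MOE430B, with lmFit and eBayes of limma 3.58.1 in R 4.3.3, each chip apart, and Benjamini-Hochberg adjustment over the chip (threshold 0.05, two-sided). All adjusted p-values come from limma. Where all values of 1 state lay below the background they were raised to it, and the ratio of geometric means is given as "at least".

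On simulated data with 200 changed probe sets, 48% of 2-fold and 83% of 4-fold changes were recovered among 15939 probe sets of MOE430A, with 6.43% false among 140 calls. Among 17915 of MOE430B 0% and 23% were recovered, with 11.5% false among 26 calls, so a gene of that chip that did not pass may still have changed. The members, gene lists, tests and named genes were chosen with earlier results of these data known. All 9 members are named, and of each list the largest rise and fall that passed with some genes fixed by name, such as Col1a1 and Tgfb1. Tables and figures used Python 3.11.15, pandas 2.3.3, scipy 1.17.1 and matplotlib 3.10.9.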

Additional observations from a re-analysis of the deposited data

Results flagged for a closer look

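The 18S ribosomal RNA control probe set, which no comparison used, read above the highest undifferentiated value in differentiated samples 1 and 4 on both chips. It read 25340 and 17930 on MOE430A and 86130 and 64910 on MOE430B, where the highest undifferentiated values were 2456 and 11126. Differentiated sample 2 read 2089 and 7474.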

How the results depend on the processing

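On MOE430A 15 family probe sets were higher and 2 lower under most of the 19 alternatives. The count of higher ones was 11 with scaling on the hybridisation controls, 14 without differentiated samples 1 and 4, 12 with the filter at 50% of the trimmed mean and 16 without a filter; with that stricter filter 1 was lower instead of 2, since Kera was then not tested. Quantile normalization and scaling on the hybridisation controls made 3 lower. The fit without differentiated samples 1 and 4 leaves 1 differentiated sample, which is assumed to vary as the undifferentiated ones do. On MOE430B 1 probe set, that of Dcn, was lower with scaling on the hybridisation controls, against 0 otherwise. Leaving out each sample in turn gave 15 higher and 2 lower each time. Undifferentiated sample 1 was alone in its scan session, so taking that session as a block repeats the fit without that sample. The signals as deposited gave nearly the values of the main fit, so these alternatives are not all separate checks. The change of Dcn on 1449368_at turned positive with scaling on the poly-A controls (0.0021) and without differentiated sample 2 (0.12), passing in neither; leaving out each sample in turn gave -0.19 to 0.12. Values compared were those of the probe sets and, for Bgn, Fmod, Ogn, Prelp and Aspn, also the median change over their probe sets. Of these 352 kept direction and, for probe sets, side of the threshold. Another 5 no longer passed, 3 newly passed and 2 turned direction. The cause was not tested. Genes of the pathway lists that passed numbered 35, and 24 to 42 over the alternatives. Same-numbered samples of the states did not deviate together (r from -0.021 to 0.047 over probe sets), and with the sample number as a replicate block 15 family probe sets were higher and 2 lower. Under that block limma called 0 probe sets on MOE430B (2505 at an unadjusted p under 0.05). The signal over background limits Fmod, Prelp, Ogn, Aspn, Kera and Omd to lower bounds or uncertain sizes.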

Other observations

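Markers of other cell types were read as values, with sums over the markers on MOE430A. Their counts stand beside 14.1% of all tested probe sets of that chip that rose and 14.4% that fell. Of 6 chondrocyte markers 3 rose, the cartilage genes Col2a1, Comp and Col9a1, with the list's summed signal at 2684 to 3048 in the undifferentiated and 4133 to 5601 in the differentiated samples. With scaling on the hybridisation controls 0 rose, and the list's median was -0.50 beside 0.57. With scaling on the poly-A controls 3 rose, with a median of 0.60. Without differentiated samples 1 and 4, with 1 differentiated sample left, none of the 3 passed in limma and their changes were 1.17, 0.70 and 0.50 (log2, adjusted p from 0.0983 to 0.15). Col2a1 was at least 1.58-fold and Comp at least 1.43-fold higher, but only 2 differentiated Comp values lay above the background. The other Col9a1 probe set tested did not pass. Nor did the markers Sox9, Acan and Matn3, the last 2 of them below the background on all arrays. Of 4 tendon markers Tnmd, which encodes tenomodulin, rose at least 1.76-fold and Egr1, an early growth response factor, fell. Only 2 differentiated Tnmd values lay above the background, so that bound rests partly on a value below it. The summed signal of Tnmd and Egr1, without Scx and Mkx on MOE430B, was 10944 to 12482 and 4127 to 6240. Neither tested osteoblast marker, Sp7 or Alpl, passed (1436 to 2133 and 1422 to 1923).

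Of the adipocyte markers tested, Lpl, the lipoprotein lipase gene, rose from 9144 ± 954 to 82150 ± 9895 (SD, n = 3 each). The other one tested, Fabp4, did not pass (limma adjusted p = 0.217). Adipoq and Pparg were not tested and lay below the background on all arrays. The summed signal of the list was 8659 to 10832 and 72438 to 92181. Of 4 leukocyte markers Csf1r rose and 3 did not pass, with Ptprc, on MOE430B and outside the sum, below the background (2992 to 3616 and 4165 to 5185). Of 4 endothelial markers Kdr rose and Pecam1 and Tek fell (2595 to 3244 and 2405 to 3440). Of 5 pericyte markers Cspg4 fell (5360 to 6214 and 4095 to 4821), and Kcnj8 and Abcc9, the latter on MOE430B and outside the sum, lay below the background. With scaling on the hybridisation controls none of Kdr, Csf1r and Tnmd passed as a rise.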
